A study of Mus musculus with 4 samples.

Results

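The respiratory chain genes were the rows of the deposited table with a protein-coding transcript type and a symbol that belongs to complex I (Nduf), complex II (Sdha to Sdhd), complex III (Uqcr), complex IV (Cox4 to Cox8), the ATP synthase or complex V (Atp5), or to the subunits encoded by the mitochondrial genome (mt-Nd, mt-Co, mt-Cytb and mt-Atp). They were chosen by name alone, and they came to 108 of 55385 rows, of which 95 lie in the nuclear genome and 13 in the mitochondrial genome. The symbols also take in assembly factors of complex I (Ndufaf genes), which build the complex without staying in it. Ndufa4 and Ndufa4l2 were counted with complex IV, where their proteins are placed today. In the pathway annotation of the table, 80 of the 108 rows belong to oxidative phosphorylation and 28 do not.

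RNA came from GC-1 cells, a mouse line of spermatogonial origin, that had received a MYC plasmid (control cells) or a MYC-TET1 plasmid (TET1 overexpression group) and were collected at 24 h or at 36 h. TET1 is an enzyme that oxidises methylated cytosine in DNA. The plasmid was delivered by transient transfection, and the share of cells that took it up is not given. Each of the 4 conditions had 1 library, and values are given throughout in the order MYC 24 h, MYC-TET1 24 h, MYC 36 h, MYC-TET1 36 h. The labels describe the MYC libraries as control and untreated, and all 4 libraries carry a transfected plasmid. No library is a repeat of another, so differences between conditions are given with no error from repeat libraries, no p-value was computed, and library, plasmid and time cannot be told apart within a pair.

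Total counts ran from 60611877 to 72547105 per library. Tet1 stood at FPKM 0.0525, 40.2, 0.0562 and 19.6 in the 4 libraries, so both libraries labelled MYC-TET1 stood far above both labelled MYC. Of the lists of cell type markers, 1 of 11 spermatogonial genes (Uchl1) reached FPKM 1 in any library and 5 had no reads, and 0 of 7 meiotic, 3 of 5 Sertoli, 0 of 3 Leydig and 4 of 5 fibroblast genes reached it. The summed FPKM of the fibroblast list was between 266 and 297, most of it Col1a1 (209 to 229). That of the Sertoli list was between 23.1 and 36.3. The spermatogonial list summed to between 11.2 and 13.7, nearly all of it Uchl1 (10.5 to 12.9). Ddx4, Dazl and Zbtb16 of that list were at or near 0 in these cells.

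The respiratory chain sits in the inner membrane of mitochondria. Complex I takes electrons from NADH and complex II takes them from succinate, complex III passes them to cytochrome c, and complex IV hands them to oxygen. Complexes I, III and IV pump protons, and complex V lets them flow back to make ATP. The mitochondrial genome encodes a few hydrophobic core subunits and the nucleus encodes all others, which are imported. The mitochondrial genome is read from each strand as a long transcript that is then cut into messages at the transfer RNAs between them, and complex II alone has no mitochondrially encoded subunit. Several nuclear subunits of complex IV exist as a general form and as a form of heart, muscle, lung or testis.

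Some stretches of the mitochondrial genes also belong to another row of the table, and how the counting treated reads there is not given in the sources used here. The first is the overlap of mt-Atp8 and mt-Atp6, 2 subunits of the proton channel of complex V. Their reading frames share 43 bases at chrM:7927-7969 (GRCm38, forward strand). The next line shows chrM:7907-7989, with the shared bases in capitals between 20 bases of mt-Atp8 and 20 bases of mt-Atp6.
mt-Atp8 and mt-Atp6: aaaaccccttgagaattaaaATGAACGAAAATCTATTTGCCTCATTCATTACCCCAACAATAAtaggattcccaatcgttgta
The second is an insertion of mitochondrial sequence in chromosome 1, on which the table lists pseudogene rows of their own. The row Gm10925 is 678 bases long and has 0 mismatches to mt-Atp6, itself 681 bases long, over its whole length. The row Gm28438 differs from mt-Nd3 over 345 bases at 1 position, T3C, counted from the first base of mt-Nd3. Both starts are shown to make plain how little separates a gene from its copy, with the differing base in capitals. The mitochondrial stretch is chrM:9459-9481 (forward strand) and the nuclear one chr1:24613097-24613119 (reverse strand).
mt-Nd3: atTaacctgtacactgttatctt
Gm28438: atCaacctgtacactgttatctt

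The 13 mitochondrial genes were the most abundant members by far. Their median FPKM (reads scaled by the length of the gene model and by the size of the library, as deposited) was 1112, 1076, 1481 and 1272 in the 4 libraries, against 46.8, 44.6, 46.4 and 48.5 for the nuclear members. The ratio of the medians was 23.8, 24.1, 31.9 and 26.2 by FPKM, which divides most nuclear genes, but not the mitochondrial ones, by more than the length of the principal transcript. Per kilobase of principal transcript it was 13.3, 14.6, 18.5 and 14.8, over 87 nuclear members. Together the 13 genes took 2.38%, 2.19%, 2.88% and 2.44% of all counts, and the 95 nuclear rows took 1.16%, 1.15%, 1.21% and 1.21%. The exact 95% Clopper-Pearson interval of the first mitochondrial share was 2.379% to 2.387%, which covers counting error only. A share of the library does not tell fewer transcripts per cell from more of other transcripts.

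**Figure D1:**
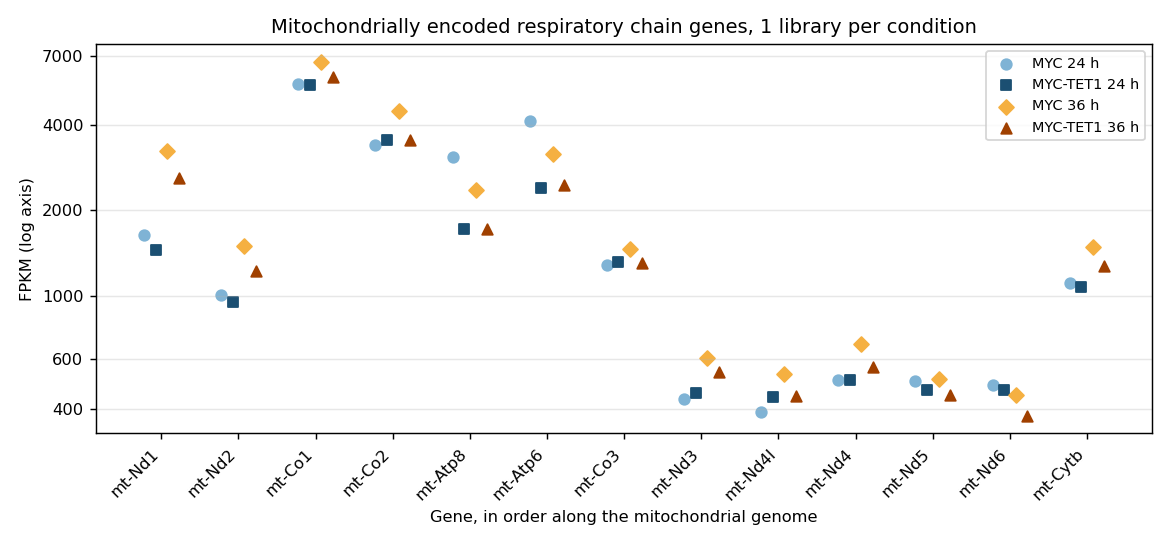
FPKM (vertical log axis) of the 13 mitochondrially encoded genes in their order along the mitochondrial genome (horizontal axis), with 1 point per library and no error bars because there is 1 library per condition. mt-Co1 is the highest gene as deposited, at 5523 to 6690, mt-Nd1 separates into a 24 h pair and a 36 h pair, and mt-Atp8 and mt-Atp6 are highest in the MYC library at 24 h.

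By deposited FPKM, a level per length, the order among the mitochondrial genes ran from mt-Co1, the catalytic subunit of complex IV, with a mean FPKM of 5930 over the 4 libraries, to mt-Nd6 with 443. mt-Co2, which takes electrons from cytochrome c, had 3745, mt-Atp6 had 3036, mt-Nd1 had 2229 and mt-Atp8 had 2220. mt-Co3, mt-Cytb (the cytochrome b of complex III) and mt-Nd2 followed at 1343, 1235 and 1169. The remaining subunits of complex I were mt-Nd4 at 562, mt-Nd3 at 507, mt-Nd5 at 481 and mt-Nd4l at 450. Several neighbours in this order exchanged places between libraries, so the order of means is not that of each library. In MYC at 24 h mt-Atp6 was above mt-Co2 and mt-Atp8 above mt-Nd1, and in MYC at 36 h each pair was the other way. mt-Nd2 was above mt-Co3 and mt-Cytb in MYC at 36 h alone, and mt-Nd3, mt-Nd4l, mt-Nd5 and mt-Nd6 also changed places. The order also depends on the nuclear copies: with their reads added, mt-Co2 and mt-Co1 had nearly equal mean levels of 7760 and 7719 reads per kilobase, scaled to library size, mt-Co3 at 2830 passed mt-Nd1 at 2476, and mt-Nd3 at 1086 and mt-Nd4l at 954 passed mt-Nd4 at 851. mt-Nd6 is the only member transcribed from the other strand and overlaps mt-Nd5 by 14 bases, and since the sources used here do not say whether the counting used strand, antisense reads of its neighbours cannot be told apart from its own.

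With time, the mitochondrial genes stood apart from the nuclear ones in MYC more than in MYC-TET1, a difference that was not tested. The median log2 ratio (of FPKM + 0.1) at 36 h against 24 h was 0.40 over the 13 genes in MYC, against 0.04 over the nuclear members and 0.02 over all 11972 genes compared. In MYC-TET1 it was 0.03, against 0.08 and 0.02. With the reads of the nuclear copies added, the mitochondrial medians were 0.28 and 0.22. A difference of 0.32 or more on this log2 scale is used here as a small threshold, with no error between samples. In MYC, 7 of 13 mitochondrial genes were higher past it and 2 lower past it, where 12.9% and 10.4% of all genes compared were. In MYC-TET1, 2 were higher and 0 lower, beside 11.2% and 9.97% of all genes. With the reads of copies added, the counts were 6 higher and 1 lower in MYC and 3 higher and 0 lower in MYC-TET1. None of the 13 was 2-fold different in either, where 4.72% and 3.9% of all genes were.

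mt-Nd1, the first protein gene after the ribosomal RNAs and a membrane subunit of complex I, had the largest difference with time among the 13 mitochondrial genes with both plasmids. It had FPKM 1636, 1448, 3236 and 2597. Both 36 h libraries were therefore above both 24 h libraries. The log2 ratio of 36 h to 24 h was 0.98 in MYC (207578 against 116398 counts) and 0.84 in MYC-TET1 (200688 against 110342 counts). The counting interval of the first was 0.96 to 0.99 and that of the second 0.83 to 0.85. mt-Nd2, its neighbour, showed the same order of libraries at FPKM 1006, 951, 1497 and 1222, with log2 ratios of 0.57 and 0.36. mt-Nd3 had log2 ratios of 0.48 and 0.24, which were 0.45 and 0.44 with the reads of its copy added. mt-Cytb had FPKM 1112, 1076, 1481 and 1272 and log2 ratios of 0.41 and 0.24. In MYC, mt-Nd4l at 0.44 and mt-Nd4 at 0.43 also stood above mt-Cytb.

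Not all genes of the genome followed mt-Nd1. mt-Nd5 had FPKM 499, 466, 511 and 448, a log2 ratio with time of 0.03 in MYC, which turned negative with TMM factors (another scaling of the libraries), and -0.06 in MYC-TET1. mt-Nd6 had FPKM 483, 464, 448 and 378, and was lower at 36 h with both plasmids, by log2 ratios of -0.11 and -0.30. Complex I subunits thus differed with time by unlike amounts, and mt-Nd1 was 1.98-fold higher at 36 h in MYC where mt-Nd5 was 1.02-fold higher. The ribosomal RNAs mt-Rnr1 and mt-Rnr2, which lie upstream of mt-Nd1 and are not respiratory chain genes, were lower at 36 h in the same libraries by unlike amounts. The log2 ratios were -0.71 and -0.69 for mt-Rnr1 and -0.09 and -0.01 for mt-Rnr2.

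With the MYC-TET1 plasmid, all 13 mitochondrial genes were lower than in control cells at 36 h, with log2 ratios from -0.45 (mt-Atp8) to -0.17 (mt-Nd3) and a median of -0.25. Past the small threshold there were 3 lower and 0 higher, where 9.91% of all genes compared at 36 h were lower and 8.1% higher. At 24 h, 9 of the 13 were lower, among them mt-Nd4 at 0.00, and 4 higher, the median was -0.05, and past the threshold 2 were lower beside 7.95% of all genes and 0 higher beside 7.38%. With the reads of copies added, all 13 were lower at 24 h, so that the 4 higher genes turned, and the median was -0.10. None was 2-fold different at 24 h or 36 h, where 3.22% and 3.75% of all genes were. The nuclear members had medians of -0.025 at 24 h and 0.00 at 36 h.

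The 3 genes past the small threshold at 36 h were mt-Atp8, mt-Atp6 and mt-Co2, and the 2 at 24 h were mt-Atp8 and mt-Atp6. With the reads of copies added, mt-Co2 at 36 h went from -0.35 to -0.21, and mt-Atp8, which has no copy row, was the 1 gene past the threshold at either time. mt-Atp6, the proton channel subunit of complex V, had FPKM 4123, 2405, 3162 and 2456. The MYC library at 24 h was highest and the MYC-TET1 libraries were nearly equal. The log2 ratio by plasmid was -0.78 at 24 h, with a counting interval of -0.79 to -0.77, and -0.36 at 36 h. mt-Atp8, which overlaps it, had FPKM 3075, 1724, 2357 and 1725 and log2 ratios of -0.84 and -0.45. The other 11 genes lay between -0.18 and 0.17 at 24 h.

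mt-Atp6 did not keep these differences when the reads of the chromosome 1 copy were counted. Gm10925, the copy of mt-Atp6, had 23089, 94741, 111759 and 131932 counts in the 4 libraries. It thus held 9.96%, 42.1%, 43.6% and 49.4% of the counts of gene and copy together, and the library with the highest mt-Atp6 had by far the fewest counts on the copy. Summed over gene and copy, the log2 ratio of mt-Atp6 by plasmid was -0.14 at 24 h and -0.20 at 36 h. With time it was 0.28 in MYC, where the gene alone had -0.38, and 0.22 in MYC-TET1, where the gene alone had 0.03.

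No row of the table covers the stretch that corresponds to mt-Atp8 on chromosome 1. The copies of mt-Co2 and mt-Atp6 there lie 233 bases apart with 0 rows between them, and the genes themselves lie 230 bases apart with mt-Atp8 in between. mt-Atp8 therefore could not be corrected in the same way, and whether its reads also went to chromosome 1 was not tested. The values of mt-Atp8 moved with those of mt-Atp6 in all 4 libraries.

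**Figure D2:**
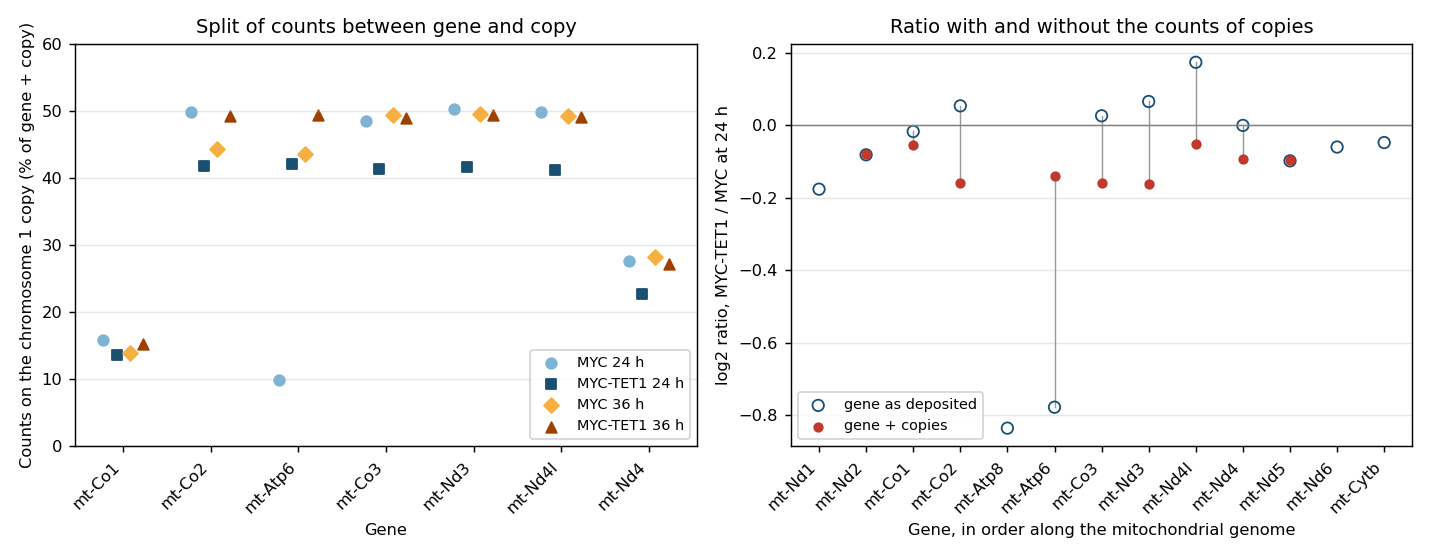
Left, the counts on the chromosome 1 copy as a percentage of the counts of gene and copy together (vertical axis) for 7 mitochondrial genes, 1 point per library. For mt-Co1 and mt-Co2 the counts of a small copy row on chromosome 2 are included. Right, the log2 ratio by plasmid at 24 h (MYC-TET1 over MYC) for each mitochondrial gene as deposited (open circles) and with the counts of its copies added (filled circles; 4 genes have no copy row). mt-Atp6 in MYC at 24 h sits alone at 9.96%, and with the copies added all ratios except that of mt-Atp8 lie between -0.18 and -0.05.

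The split differed between libraries for other genes too. For mt-Co2, mt-Co3, mt-Nd3 and mt-Nd4l, whose copies are nearly identical over most of their length, the copy held 48.5% to 50.2% of the counts in MYC at 24 h and 48.9% to 49.3% in MYC-TET1 at 36 h. It held 41.2% to 41.9% in MYC-TET1 at 24 h and 44.4% to 49.5% in MYC at 36 h, where mt-Co2 was the lowest. The copy of mt-Nd4 held 22.7% to 28.2% and the copies of mt-Co1 13.6% to 15.8% over the 4 libraries. For mt-Co1 and mt-Co2 these counts include a copy row on chromosome 2, with 749 to 1085 and 315 to 783 counts. mt-Nd2 and mt-Nd5 had under 0.4% of their counts on copies, and mt-Nd1, mt-Nd6, mt-Cytb and mt-Atp8 had no copy row that passed 95% identity over 100 bases.

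With the copies added, the spread of the 13 ratios by plasmid, from lowest to highest, was 0.79 at 24 h instead of 1.01, and 0.31 at 36 h instead of 0.28. At 24 h, the 12 genes other than mt-Atp8 were all lower in MYC-TET1, from -0.18 (mt-Nd1) to -0.05 (mt-Cytb). At 36 h they were all lower again, from -0.32 (mt-Nd1) to -0.14 (mt-Co1), and mt-Atp8 stood at -0.84 and -0.45. With time, 11 of the 13 were higher at 36 h with either plasmid, and mt-Nd1 had the highest ratio and, apart from mt-Atp8, mt-Nd6 the lowest. The 13 genes and their copies together took 3.02%, 2.79%, 3.72% and 3.24% of the counts, in the same order of libraries as the genes alone.

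The mitochondrially encoded messages were also summed by complex. The share of counts on the subunits of complex IV was 1.33% in both 24 h libraries, 1.61% in MYC at 36 h, and 1.05-fold higher at 36 h than at 24 h in MYC-TET1. The share on complex I subunits was 1.49-fold higher at 36 h in MYC and 1.32-fold higher in MYC-TET1, and that on complex III 1.32-fold and 1.18-fold. The share on complex V subunits was 0.762 of its 24 h value in MYC and 1.02 in MYC-TET1. With the reads of the copy of mt-Atp6 added, it was 1.14-fold and 1.15-fold higher at 36 h, so the direction in MYC turned. With copies the share on complex IV was 1.88% and 1.76% in the 24 h libraries, and 1.17-fold higher with time in MYC and 1.11-fold in MYC-TET1, and that on complex I was 1.48-fold and 1.33-fold higher.

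**Figure D3:**
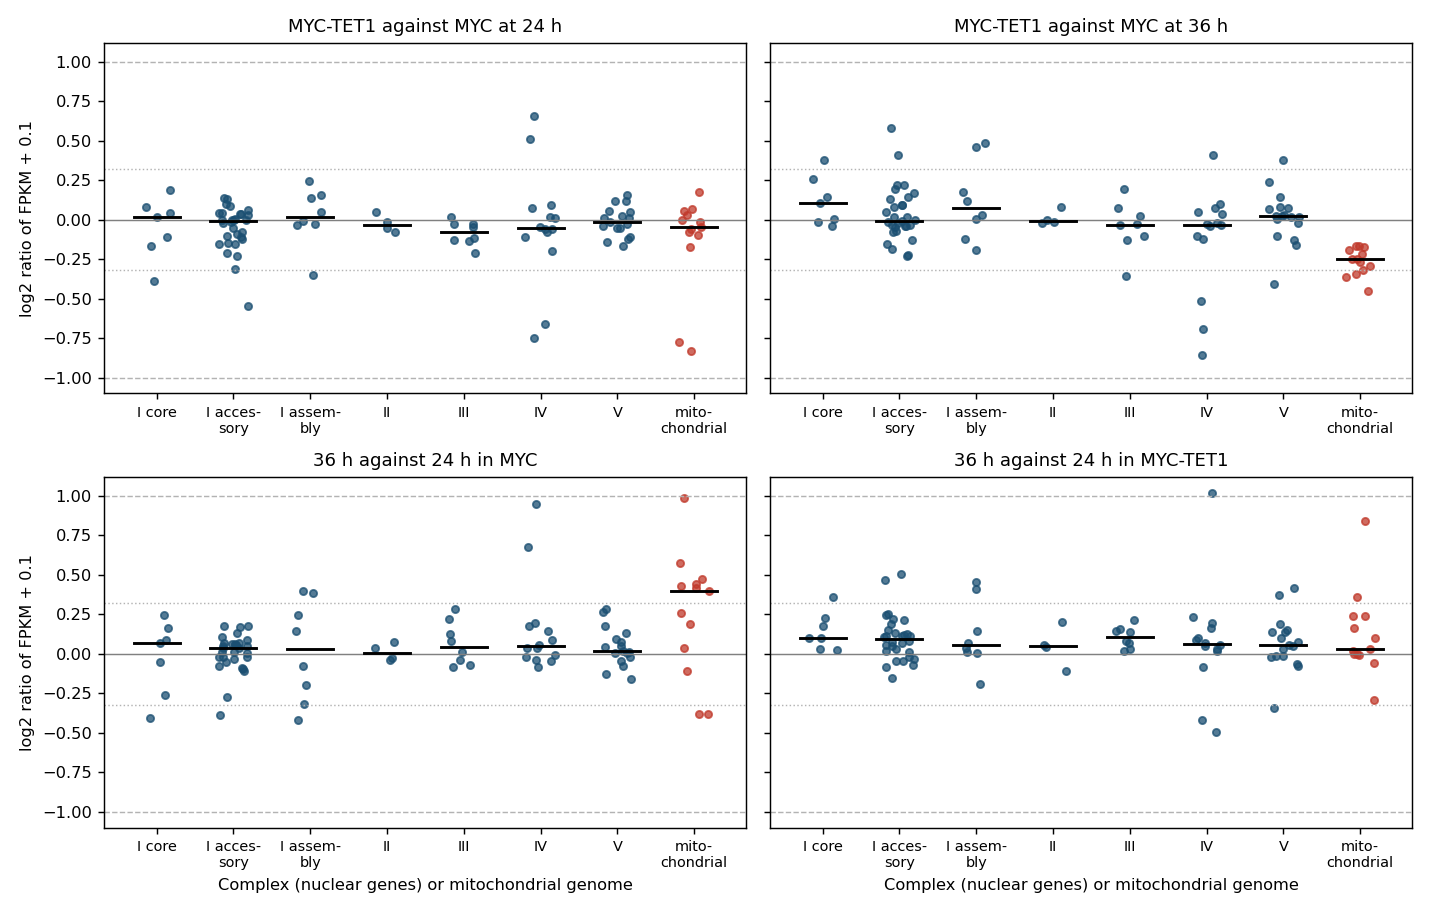
log2 ratio of FPKM + 0.1 (vertical axis) for each gene compared, by complex for nuclear genes (blue) and for the mitochondrial genome (red), in the 4 comparisons. Black bars are medians, dotted lines mark 0.32 and dashed lines 2-fold. The points of the 13 mitochondrial genes all lie below 0 at 36 h by plasmid, and 1 nuclear gene (Cox6a2) passes 2-fold.

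Most nuclear members stayed within the small threshold. Of the 95 rows, 88 reached FPKM 1 in at least 1 library and 87 in all 4, and 7 stayed below 1 throughout, of which 3 had no reads. By plasmid, 2 nuclear members were higher past the small threshold and 5 lower at 24 h, and 7 were higher and 5 lower at 36 h. With time, 4 were higher and 3 lower in MYC, and 8 were higher and 3 lower in MYC-TET1. These counts were 2.27% and 5.68% of the 88 at 24 h, 7.95% and 5.68% at 36 h, 4.55% and 3.41% with time in MYC, and 9.09% and 3.41% with time in MYC-TET1. All 8 shares lay below the background of their comparison given above, but genes of high FPKM differ less in general. Among genes with a mean FPKM of at least 10 in a pair of libraries, 3.46% were higher and 3.69% lower by plasmid at 24 h, 3.73% and 4.27% by plasmid at 36 h, 7.13% and 6.93% with time in MYC, and 6.21% and 6.44% with time in MYC-TET1. Against these, the share of nuclear members was larger in both directions at 36 h by plasmid, smaller in both with time in MYC, and mixed in the others. The 88 members were not held to that FPKM, however. Of those past the small threshold by plasmid at 24 h, Cox7a1, Cox6a2, Ndufb5 and Ndufaf2 stayed below 10 in every library. The sets are thus unlike, and no reading is drawn from which share was larger. In the 4 comparisons, 18 nuclear members passed the small threshold at least once and 70 did not.

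The spread over the 4 libraries gave the same picture. The coefficient of variation of FPKM had a median of 6.02% over the 87 nuclear members and 14.7% over the 13 mitochondrial genes. Over all 10932 genes with FPKM of at least 1 in every library it was 7.89%, and over the 4820 genes with a mean FPKM of at least 10 it was 5.98%. The nuclear members were thus about as even as other genes of high level, and the assembly factors of complex I, with a median FPKM of 6.26, had 12.6%.

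Levels of nuclear members are compared here per kilobase of the principal transcript, since the deposited FPKM divide by the merged exons of all isoforms of a gene, which were longer than the principal transcript by a median factor of 1.45 and by 11.8 at most (Atp5l). On this scale complex V had the highest nuclear median, 186, followed by complex IV at 157, complex III at 132 and complex II at 94.9. The complex IV median includes the low tissue forms Cox6a2 at 1.73 and Cox7a1 at 2.79. Without them it would lie between Cox7c at 177 and Cox5a at 225, so the order of complexes V and IV depends on them. The core subunits of complex I stood at 76.4 and its accessory subunits at 62.0. The assembly factors of complex I, which are needed in passing, stood at 13.4. By FPKM the most abundant nuclear member of each complex was Ndufb9 (144) in complex I, Sdhd (159) in complex II, Uqcr10 (249) in complex III, Cox6a1 (563) in complex IV and Atp5b (374), the catalytic beta subunit, in complex V.

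Complex II, which oxidises succinate and is also an enzyme of the citric acid cycle, was the most even. Sdha, the flavoprotein, had FPKM 40.3, 38.1, 39.6 and 39.2, and Sdhd, a membrane anchor, had 157, 155, 161 and 161. Sdhc, the other anchor, had 39.0, 40.4, 37.9 and 37.4. Sdhb, the iron-sulphur subunit, had 56.8, 54.7, 59.7 and 63.0 and was the only one past a coefficient of variation of 4%, at 6.14%. None of the 4 passed the small threshold in any comparison, and the median coefficient of variation was 2.87%.

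Complex I is the largest complex and had the most members. Of its 7 nuclear core subunits, which carry the flavin and the iron-sulphur clusters, all were higher at 36 h than at 24 h in MYC-TET1, with a median log2 ratio of 0.10, and 4 of 7 were in MYC. Of the 30 accessory subunits 23 were higher with time in MYC-TET1 and 19 in MYC, with medians of 0.10 and 0.04. Among all 88 nuclear members 70 were higher with time in MYC-TET1 and 55 in MYC, which became 64 and 46 with TMM factors, and among all genes 6446 of 11901 and 6476 of 11972. By plasmid the accessory subunits had medians of -0.01 at both times, and 0.01 at 36 h with TMM factors. With that scaling the accessory median with time in MYC was 0.00, with 15 of 30 higher, and all 7 core subunits were still higher with time in MYC-TET1. The 4 nuclear members that were higher with MYC-TET1 at both times by the largest margin were subunits of complex I or its assembly factors. Complex I genes make up 45 of the 88 nuclear members compared. The 4 were Ndufaf8 (log2 ratios 0.16 and 0.48), Ndufa5 (0.14 and 0.41), Ndufv3 (0.10 and 0.09) and Ndufb4 (0.08 and 0.22). The counting interval of Ndufb4 at 24 h includes 0, from -0.01 to 0.18. With the reads of its copies added, its ratio at 24 h was 0.05, and Cox8a of complex IV (0.08 and 0.10) ranked above it.

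Some complex I genes crossed over, and these were picked out after their values were seen. Ndufv1, which holds the flavin where NADH gives up its electrons, had FPKM 42.9, 32.8, 32.4 and 42.1. It was high in MYC at 24 h and in MYC-TET1 at 36 h and low in the others, so that the log2 ratio by plasmid was -0.39 at 24 h and 0.38 at 36 h. Ndufa11, a membrane accessory subunit, was also high in these 2 libraries, at FPKM 41.8, 33.6, 31.9 and 47.6, with log2 ratios of -0.31 and 0.58. Ndufb5, another membrane subunit, had FPKM 7.80, 5.29, 6.43 and 7.37 and log2 ratios of -0.55 and 0.19. Since a gene of this pattern differs with time in opposite directions for the plasmids by construction, its 4 ratios are not 4 separate results. The difference between the times was not tested.

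The assembly factors Ndufaf3 and Ndufaf6 were the nuclear members that were higher at 36 h with both plasmids by the largest margin. Ndufaf3 had FPKM 4.12, 4.09, 5.46 and 5.47, and Ndufaf6 had 4.65, 4.80, 6.09 and 6.61. In each, both 36 h libraries were above both 24 h libraries. The log2 ratios were 0.40 and 0.41 for Ndufaf3 and 0.38 and 0.45 for Ndufaf6. Next in rank were Atp5j, a stalk subunit of complex V, at 0.28 and 0.37, and Uqcrq of complex III at 0.22 and 0.22. The 4 with the largest difference downward at 36 h stayed small: Atp5e (-0.16 and -0.08), Cox6b1 (-0.04 and -0.08), Ndufa9 (-0.06 and -0.04) and Sdhc (-0.04 and -0.11). The counting interval of Ndufa9 in MYC-TET1 ran from -0.09 to 0.00.

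Of the 8 nuclear members of complex III, all with Uqcr symbols, 7 were lower with MYC-TET1 at 24 h and 5 at 36 h. Their medians were -0.08 and -0.03. Among the 88 nuclear members 53 and 42 were lower, and among all genes 6171 of 11842 and 6064 of 11959. Cyc1, the cytochrome c1 of this complex, has another symbol and was counted with the electron carriers below. Its log2 ratios by plasmid were 0.23 at 24 h and -0.06 at 36 h. Uqcrh, the hinge protein that docks cytochrome c1, had FPKM 59.4, 51.3, 72.3 and 56.5. The MYC libraries were above the MYC-TET1 libraries, with log2 ratios of -0.21 at 24 h and -0.36 at 36 h. A processed pseudogene row on the opposite strand, Gm12854, overlaps 297 bases of it and had 2235 to 2509 counts per library, beside 5051 to 6002 for Uqcrh. Uqcrc1 and Uqcrc2, the core proteins, and Uqcrfs1, the Rieske iron-sulphur protein, stayed within the small threshold throughout.

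Cox7a2 was the only nuclear member past the small threshold by plasmid in the same direction at both times, 1 of 88 or 1.14%. Of all 11547 genes compared at both times 1.38% were higher at both and 2.03% lower at both, 3.4% in all, and of the 4823 with a mean FPKM of at least 10 it was 0.663% and 0.892%, 1.56% in all. A share of 1 in 88 is near these backgrounds. Cox7a2 encodes the general form of a small membrane subunit of complex IV and lies at chr9:79755361-79759878 (reverse strand). It had FPKM 78.1, 46.4, 77.6 and 48.0, from 5481, 3485, 4911 and 3660 counts. Both MYC-TET1 libraries lay below both MYC libraries. The log2 ratio by plasmid was -0.75 at 24 h and -0.69 at 36 h, which is 1.68-fold and 1.62-fold lower, with counting intervals of -0.81 to -0.69 and -0.75 to -0.62. With time it was -0.01 in MYC and 0.05 in MYC-TET1. The other nuclear members ranked lowest by plasmid at both times were Uqcrh, Ndufc1 (-0.23 and -0.22) and Ndufa12 (-0.15 and -0.23). The ratios of Ndufa12 shrank to -0.02 and -0.12 when its pseudogene reads were added.

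Cox7a2l, a paralog of Cox7a2 whose protein joins complexes III and IV into supercomplexes, behaved differently. Its FPKM was 69.0, 109, 79.1 and 77.2, so that MYC-TET1 at 24 h stood above the other 3 libraries. The log2 ratio by plasmid was 0.66 at 24 h and -0.03 at 36 h. Of the summed level of Cox7a1, Cox7a2 and Cox7a2l per kilobase of principal transcript, Cox7a2 held 53.7% and 49.8% in the MYC libraries at 24 h and 36 h, and 30.4% and 38.9% in the MYC-TET1 libraries. Cox7a1, the heart and muscle form, held 0.886% to 1.61%, with FPKM 1.32, 1.92, 2.63 and 1.41 from 54 to 95 counts. Its log2 ratio by plasmid was 0.51 at 24 h, with a counting interval of 0.01 to 1.04, and -0.86 at 36 h.

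The promoters of the first 2 paralogs are shown because they differed by plasmid in unlike ways. Both are from RefSeq (GRCm38.p6) and run from 250 bases before to 50 bases after the start site, with matches to the motifs described further on in capitals. The promoter of Cox7a2 is chr9:79759804-79760103 and that of Cox7a2l is chr17:83514284-83514583, both on the reverse strand.
Cox7a2: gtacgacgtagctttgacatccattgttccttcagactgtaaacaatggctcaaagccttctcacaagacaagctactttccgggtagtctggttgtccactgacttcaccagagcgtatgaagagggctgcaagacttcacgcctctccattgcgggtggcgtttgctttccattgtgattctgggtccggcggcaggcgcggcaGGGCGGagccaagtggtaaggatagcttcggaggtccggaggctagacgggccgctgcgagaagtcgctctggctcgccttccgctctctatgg
Cox7a2l: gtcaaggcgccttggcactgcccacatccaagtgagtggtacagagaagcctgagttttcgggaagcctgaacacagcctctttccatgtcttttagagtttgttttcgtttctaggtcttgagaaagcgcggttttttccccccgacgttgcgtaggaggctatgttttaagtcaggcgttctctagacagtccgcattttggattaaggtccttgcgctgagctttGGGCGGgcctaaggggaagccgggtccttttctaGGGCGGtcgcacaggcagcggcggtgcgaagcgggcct
Each holds the GC box GGGCGG, with 1 match in Cox7a2 and 2 in Cox7a2l, and none of the other motifs searched. A match is a description of the letters and says nothing about binding.

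**Figure D4:**
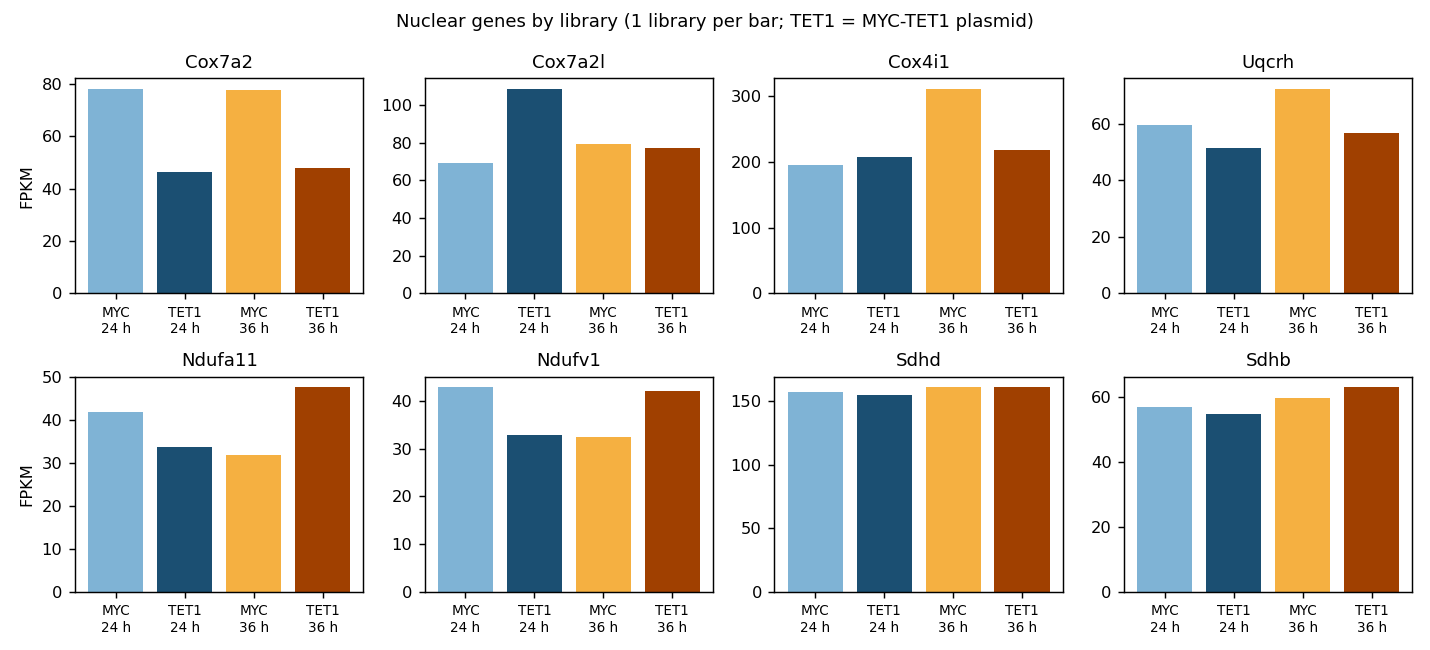
FPKM (vertical axes from 0) of 8 nuclear genes, with 1 bar per library in the order MYC 24 h, MYC-TET1 24 h, MYC 36 h and MYC-TET1 36 h. Cox7a2 is lower in both MYC-TET1 bars, Cox7a2l is highest in MYC-TET1 at 24 h, Cox4i1 is highest in MYC at 36 h, Ndufa11 and Ndufv1 are high in the first and last bars, and Sdhd is level.

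Cox4i1, the general form of the largest nuclear subunit of complex IV, stood apart in 1 library. Its FPKM was 194.7, 207.7, 310.8 and 217.4, from 22430, 25633, 32292 and 27218 counts, so that MYC at 36 h was high and the other 3 libraries lay close together. The log2 ratio was 0.67 with time in MYC and -0.52 by plasmid at 36 h, and 0.09 by plasmid at 24 h and 0.07 with time in MYC-TET1. Its neighbour Emc8 overlaps 352 bases of it on the opposite strand, with 2857 to 3946 counts. These raw counts were lowest in MYC at 36 h, which also had the smallest total (60611877). The lung form Cox4i2 had between 0 and 14 counts.

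The tissue forms of complex IV were near 0 in general. Cox6a1, the general form, had FPKM 524, 529, 592 and 607, and Cox6a2, the heart and muscle form, 1.597, 0.974, 1.54 and 2.08, which is 0.150% to 0.278% of their summed level per kilobase. Cox6a2 was the only member past 2-fold in any comparison, with a log2 ratio of 1.02 at 36 h against 24 h in MYC-TET1. It rests on 53 and 114 counts, and its counting interval ran from 0.60 to 1.58. With a pseudocount of 1, with TMM factors or with the total outside the mitochondrial genome it was not past 2-fold. Cox6b1 had FPKM 252, 242, 245 and 228, and the testis form Cox6b2 between 0 and 4 counts. Cox7b had FPKM 64.3, 60.8, 66.1 and 64.7, and its testis form Cox7b2 between 0 and 4 counts. Cox8a had 433, 456, 478 and 512, and Cox8b and Cox8c had no reads in any library. Ndufa4 had 114, 106, 113 and 110, and Ndufa4l2, a paralog known from low oxygen, between 7 and 16 counts. For Cox8b and Cox8c, 0 counts allow up to 3 counts of a library, so they were not detectable at this depth.

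In complex V, Atp5g1, Atp5g2 and Atp5g3 encode the same mature c subunit of the rotor with different import signals. Per kilobase of principal transcript, Atp5g3 held 50.9% to 52.2% of their summed level, Atp5g2 44.98% to 46.44% and Atp5g1 2.40% to 2.88%. By the deposited FPKM the order of the first 2 was the other way, at 145 for Atp5g2 and 124 for Atp5g3. It was also the other way when the reads of near-identical pseudogene copies were added, which gave Atp5g2 51.12% to 51.79%, Atp5g3 44.21% to 44.98% and Atp5g1 3.90% to 4.18%. Atp5b had FPKM 367, 370, 378 and 383 and was the highest nuclear member per kilobase of principal transcript. Of its 17 nuclear members compared, 0 passed the small threshold by plasmid at 24 h and with time in MYC. By plasmid at 36 h 1 was higher and 1 lower (5.88% each), and with time in MYC-TET1 2 were higher and 1 lower (11.8% and 5.88%), beside 8.1% and 9.91%, and 11.2% and 9.97%, of all genes. Picked out after their values were seen, Atp5c1, the central stalk subunit, had FPKM 126, 124, 130 and 97.9 and was low in MYC-TET1 at 36 h alone, and Atp5mpl, a small membrane subunit, had 27.4, 24.3, 25.0 and 32.5 and was high in the same library.

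Of the 18 nuclear members past the small threshold, the remaining ones not described above were the assembly factors Ndufaf2 and Ndufaf4, also picked out after their values were seen. Ndufaf2 had FPKM 3.49, 2.72, 3.30 and 3.02, with a log2 ratio by plasmid of -0.35 at 24 h. Ndufaf4 had FPKM 2.25, 2.20, 1.66 and 2.32, with a log2 ratio of 0.46 at 36 h.

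Other genes that serve the chain were taken from lists. Of the assembly factors and electron carriers outside the symbols used here, 38 of 43 were compared by plasmid, of which 5 were higher and 4 lower past the small threshold at 24 h, and 4 higher and 4 lower at 36 h, with medians of 0.00 at both times. These were 13.2% and 10.5% of the 38 at 24 h and 10.5% and 10.5% at 36 h, beside 7.38% and 7.95%, and 8.1% and 9.91%, of all genes. Of 22 genes of mitochondrial gene expression compared, 0 were higher and 4 lower at 24 h, and 0 higher and 1 lower at 36 h, with medians of -0.07 and -0.01. The 4 lower at 24 h were 18.2% of the 22. Of 12 regulators compared, 1 was higher and 0 lower at 24 h, and 0 higher and 1 lower at 36 h. Of 16 glycolysis genes, 0 passed the threshold by plasmid at either time. With time in MYC, the lists had 5 higher and 5 lower of 39, 2 and 1 of 22, 0 and 0 of 12, and 1 and 0 of 16, in the same order. With time in MYC-TET1 they had 2 higher and 5 lower, 3 and 1, 0 and 1, and 1 and 0. All genes had 12.9% higher and 10.4% lower in the first and 11.2% and 9.97% in the second.

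Of the 37 assembly factors and electron carriers compared at both times, 2 were lower and 1 higher past the small threshold by plasmid at both, or 5.41% and 2.7%, beside 2.03% and 1.38% of all genes. The 3, all assembly factors of complex IV, were named after their values were seen. Coa7 had FPKM 4.55, 2.01, 3.85 and 2.24, with log2 ratios by plasmid of -1.14 and -0.75. Cox20, which handles the mt-Co2 protein, had 4.27, 2.51, 3.51 and 2.15, with -0.75 and -0.68. Pet117 had 6.56, 9.47, 4.74 and 6.75, with 0.52 and 0.50. In each of the first 2 both MYC-TET1 libraries were below both MYC libraries, as for Cox7a2. Coa7 and Cox20 rest on 618 to 1304 and 154 to 281 counts.

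The promoters of the nuclear members were also searched for motifs. Of 94 nuclear symbols, 77 had a RefSeq promoter of 300 bases, and these were searched on both strands for 5 motifs, none of which contains another. CGCATGCG, the core of the site of NRF1, a regulator of respiratory genes, was in 11 of 77 (14.3%), against 4.73% of 8274 protein-coding genes with FPKM of at least 1 in any library and 2.07% of all 27025 genes with a promoter. CCGGAAG, an ETS and GABP site, was in 24.7%, against 22.3% and 9.93%. AAGATGG, a YY1 site, was in 15.6%, against 8.97% and 7.28%. GGGCGG, the GC box of SP1, was in 45.5%, against 71.9% and 38.2%. TGACGTCA, the cyclic AMP response element, was in 5.19%, against 3.59% and 2.03%. None of the 5 was found in 21 of the 77. The median GC content of the members' promoters was 58.5%, against 61.3% and 52.8%.

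The 11 windows with the NRF1 core are printed because its share stood highest in proportion to that of other expressed genes. Each has the 8 bases of the core in capitals with up to 10 bases on each side, on the strand of the gene, in GRCm38.p6. The cores begin between 241 bases before and 32 bases after the start site.
Ndufa11, chr17:56717693-56717720 (+): ctgcactgcgCGCATGCGcgcacgcctt
Ndufa8, chr2:36049330-36049357 (-): tcgctggagaCGCATGCGcagatggtac
Ndufaf4, chr4:24897961-24897988 (+): cagatgtctgCGCATGCGcctgtgcgga
Ndufaf5, chr2:140170653-140170680 (+): gtcccgttggCGCATGCGcctaatagaa
Uqcr11, chr10:80406809-80406836 (-): atcgccttcaCGCATGCGctatacgtct
Uqcrc1, chr9:108936669-108936696 (+): ctccgctctgCGCATGCGcagcgcggct
Cox6a1, chr5:115349102-115349129 (-): aggaacggggCGCATGCGcgctctcgct
Atp5g2, chr15:102671071-102671098 (-): gctccggccgCGCATGCGcagagccttc
Atp5j, chr16:84835106-84835133 (-): ggccagaataCGCATGCGtacagtgcag
Atp5k, chr5:108434431-108434458 (-): ttcactgcggCGCATGCGcctttctggc
Atp5l, chr9:44920966-44920992 (-): aaccaataaCGCATGCGcatttccccc
They belong to complexes I, III, IV and V, and to none of the 3 genes of complex II searched (Sdha, Sdhb and Sdhd). Of the 11, Ndufa11, Ndufaf4 and Atp5j passed the small threshold in at least 1 comparison and 8 did not, beside 18 and 70 of all 88 nuclear members.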

How the data were processed

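RNA-seq libraries came from GC-1 cells that carried either plasmid, collected at either time, 1 per condition, with 60611877 to 72547105 counts each. The authors deposited whole-number read counts per gene, not normalized, and FPKM values made from them for 55385 rows. The submitters' processing notes name Bowtie 0.12.2 and the builds mm8 and mm9; the counting tool and its strand setting are not given in the sources used here. The coordinates in the table match GENCODE M21 (GRCm38): 99.6% of rows were found, 94.3% of these with the same start and end, and 94 of the 108 members. In 100 of 101 members with at least 50 counts, the length implied by FPKM was 1.113 times the merged exon length within 2%. Rows with no reads are written as FPKM 0.0001.

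Each library was assigned from its label. Libraries were compared as log2((FPKM + 0.1) of 1 over the other), a scale on which low genes appear less different than they are. A gene entered a comparison if either library had it at FPKM 1 or more. Genes past 2-fold, the fold criterion of the study, and past 1.25-fold (a log2 ratio of 0.32 after rounding) were counted. Intervals of count ratios and shares are exact Clopper-Pearson 95% intervals, for counting error only. Copies were rows with at least 95% identity over at least 100 aligned bases to a member (blastn 2.17.0): 61 copies of 33 members. The alternatives were a pseudocount of 1, no filter, counts with TMM factors (edgeR 4.0.16, scaling only), counts scaled to the total outside the mitochondrial genome, and the share of summed FPKM. Added after seeing the data were the counts of copies and the level per kilobase of the GENCODE principal transcript.

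The members, lists and tests were chosen with earlier results of these data known. Genes named were the 13 mitochondrial genes, complex II, the most abundant nuclear member of each complex, the isoform groups, members past 2-fold, and the 4 nuclear members with the largest difference up and down in the same direction at both times and with both plasmids, ranked by the smaller of the 2 ratios. Other names are said to be chosen after their values were seen. The computation was tested on simulated data with known folds. Scripts ran under R 4.3.3 and Python 3.11.15 with scipy 1.17.1, pandas 2.3.3 and numpy 2.4.6.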

Additional observations from a re-analysis of the deposited data

Results flagged for a closer look

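Among the genes named by rule, several differed by plasmid in opposite directions at 24 h and 36 h, with counting intervals on opposite sides of 0. None of these differences was tested, since each side is a single pair of libraries. Given as the log2 ratio at 36 h minus that at 24 h, they were -0.40 for mt-Co2 (0.05 and -0.35), -0.20 for mt-Co3 (0.03 and -0.17), -0.23 for mt-Nd3 (0.07 and -0.17) and -0.43 for mt-Nd4l (0.17 and -0.25). With the counts of the nuclear copies added, all 4 of these mitochondrial genes were lower with MYC-TET1 at both times. Among nuclear genes, the difference was 0.13 for Sdhb (-0.05 and 0.08), -0.61 for Cox4i1 (0.09 and -0.52), -1.37 for Cox7a1 (0.51 and -0.86, from 54 to 95 counts) and 0.11 for Atp5g3 (-0.04 and 0.06). The median over the nuclear members went from -0.025 to 0.004, a difference of 0.029.

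With time, the plasmids differed in direction for mt-Atp6 (-0.38 in MYC and 0.03 in MYC-TET1, a difference of 0.41), mt-Nd5 (0.03 and -0.06, a difference of -0.09), Cox7a2l (0.20 and -0.49, a difference of -0.69) and Atp5g3 (-0.05 and 0.06, a difference of 0.11). These were not tested either. With the copies added mt-Atp6 was higher with time with both plasmids (0.28 and 0.22), and with TMM factors mt-Nd5 was lower with both (-0.002 and -0.08), so neither then differed in direction. For mt-Atp6, the MYC library at 24 h had 9.96% of the counts of gene and copy on the copy, and the other 3 libraries 42.1% to 49.4%.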

How the results depend on the processing

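With 1 library per group there is no replicate number to block on. An additive model of plasmid plus time would leave 1 residual degree of freedom per gene, in which a plasmid effect that differs with time and the variation between libraries cannot be told apart, and it was not run. Direction was the same under every setting for the medians of both gene groups in all 4 comparisons. The median over mitochondrial genes by plasmid was -0.0475 at 24 h and -0.2517 at 36 h as reported, -0.0425 and -0.2317 with TMM factors, and -0.0963 and -0.2104 with copies; with time in MYC it was 0.3624 with TMM factors, 0.3944 scaled outside the mitochondrial genome and 0.2842 with copies, and in MYC-TET1 0.0102 with TMM factors and 0.2206 with copies. The median over nuclear members was -0.02, 0.0229, 0.0034 and 0.055 in the 4 comparisons with TMM factors, and -0.0173, 0.0172 and 0.0291 in the first 3 with copies; with no filter it was 0.0146 and 0.0705 with time in MYC and MYC-TET1. Members past 2-fold were 1 in each of the first 3 comparisons with no filter and 2 in the last, and 0 in the last under each other setting (pseudocount 1, TMM factors, scaling outside the mitochondrial genome, copies added), since Cox6a2 lies at the threshold. Nuclear members lower past the small threshold were 8 by plasmid at 24 h and 7 with time in MYC with no filter. The mitochondrial share was 6.717%, 5.865%, 7.635% and 6.389% of summed FPKM, and 3.022%, 2.791%, 3.722% and 3.242% with copies. Of single named ratios past the small threshold, only mt-Atp6 with time in MYC changed direction, to 0.2842 with copies. Counting ratios of any size, 10 took the other sign with copies, 12 with TMM factors and 1 with the total outside the mitochondrial genome, among them mt-Co2, mt-Co3, mt-Nd3 and mt-Nd4l by plasmid at 24 h with copies and mt-Nd5 with time in MYC with TMM factors. TMM factors shifted 40 of 184 by more than their counting error, and copies shifted 28 and reversed 1 of those with a copy. Without repeat libraries, the depth of 60611877 to 72547105 counts limits counting error only, and variation between repeat libraries was not estimated.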

Other observations

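The ribosomal RNAs of the mitochondrial genome, which are not respiratory chain genes, were lower with MYC-TET1 at both times, with log2 ratios of -0.08 and -0.06 for mt-Rnr1 and -0.20 and -0.12 for mt-Rnr2. mt-Rnr1 had FPKM 2610, 2471, 1597 and 1534 in the libraries MYC 24 h, MYC-TET1 24 h, MYC 36 h and MYC-TET1 36 h, with both 36 h libraries below both 24 h libraries. mt-Rnr2 had 305, 267, 288 and 264, with log2 ratios with time of -0.09 and -0.01.

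Of the glycolysis list, Gapdh, named after its values were seen, was the only gene past a log2 ratio of 0.32 in any comparison. Its FPKM was 19.8, 22.2, 78.1 and 95.3, with log2 ratios of 1.98 and 2.10 at 36 h against 24 h. Whether reads of Gapdh were also counted on other rows was not examined. Of the list of mitochondrial gene expression, Pnpt1, which degrades RNA in mitochondria, had FPKM 34.4, 31.9, 19.99 and 22.8, with log2 ratios with time of -0.78 and -0.48, and it too was named after its values were seen.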
